A study of Mus musculus and Mus spretus with 18 samples.

Results

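Genes whose brain expression stayed within 0.3 (log2) from birth to day 14, called level below, and then fell by day 56 in both species of mouse are described here. They were chosen from their own values. In musculus and in spretus alike, the mean of the 3 day 56 arrays had to lie at least 0.3 below the mean of the 3 day 14 arrays on the log2 scale, a drop of 18.8% or more. The day 14 mean had to lie within 0.3 of the day 0 mean. Of 12346 genes measured, 90 met both conditions in both species, or 0.729%. The deposited files identify genes by Ensembl number alone, and the reference tables used here pair none of these numbers with a gene symbol. The genes are therefore described by their courses and levels, with few numbers given as examples, and no function is assigned to any of them.

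The brains came from male Mus musculus of the strain WSB/EiJ and male Mus spretus of the strain SPRET/EiJ, called musculus and spretus below. Both strains were bred under standard conditions, and no treatment or genetic change is given for any group. Brains without the olfactory bulb were taken on day 0, within the first day of life, from pups on day 14 and from adults on day 56. Each of the 6 groups held 3 individuals, with 1 Affymetrix array each. Each species was represented by 1 inbred strain, so a difference between the species cannot be told apart from a difference between these strains. Whether individuals of a group shared a litter is not given, so p-values rest on the spread between these arrays alone. That spread was estimated over all 6 groups together, unless arrays are said to be fitted alone. In whole tissue, fewer cells of a type and less RNA per cell cannot be told apart. The labelled tissue could not be checked against brain markers, because no gene symbol was matched.

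As background, the mouse brain is born with few synapses and almost no myelin, and the cerebellum still forms many of its neurons after birth. During the first weeks of life axons reach their targets, synapses form in large numbers, glial cells multiply and blood vessels branch through the growing tissue. Later the growth of vessels and matrix slows, synapses are pruned, myelin goes on being laid down and periods of heightened plasticity close. Genes used for growth and assembly in pups are commonly expressed less in adults.

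Relative to each gene's own day 14 mean, the 90 genes stood together at day 0 and day 14 and dropped together at day 56. In musculus the median over the genes was 0.01, 0.03 and -0.04 (log2) in the 3 day 0 arrays. It was 0.05, -0.01 and -0.04 in the day 14 arrays and -0.48, -0.42 and -0.45 in the day 56 arrays. All 3 adult musculus arrays were thus far below all 6 younger ones. The medians in spretus were 0.06, 0.08 and 0.03 in newborns, -0.04, 0.03 and 0.03 in pups, and -0.43, -0.41 and -0.45 in adults. The adult spretus arrays lay below the younger ones in the same way. Over all 12346 genes the same median stayed between -0.05 and 0.02 in every array. These values restate the choice of the genes and are given as a description.

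**Figure D1:**
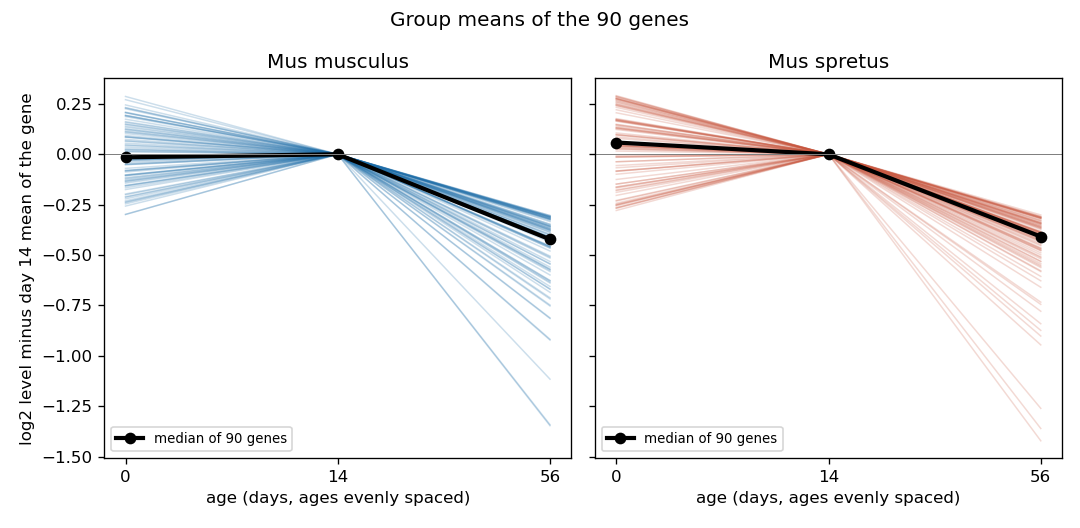
Log2 level of each of the 90 genes at day 0, 14 and 56 minus its own day 14 mean (group means of 3 arrays, 1 thin line per gene, black line for the median), with musculus on the left and spretus on the right. The lines stay within 0.3 of 0 before day 14, as the choice requires, and end between -0.30 and -1.35 in musculus and between -0.30 and -1.42 in spretus.

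Most of the falls were modest. The log2 change from day 14 to day 56 had a median of -0.42 in musculus, with quartiles of -0.57 and -0.36, and a median of -0.41 in spretus, with quartiles of -0.51 and -0.35. As a share of the day 14 level, the median gene kept 74.6% in musculus and 75.3% in spretus at day 56. In both species 32 genes fell by 0.4 or more and 17 by 0.5 or more, and 3 fell at least 2-fold. For the other 58 genes the smaller of the falls in the 2 species was under 0.4. The conditions together force the day 56 mean below the day 0 mean in every one of the 90 genes. The median log2 change from birth to adulthood was -0.49 in musculus and -0.51 in spretus.

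The clearest example was ENSMUSG00000029675. Its log2 levels in the 3 musculus arrays were 8.22, 8.07 and 7.91 in newborns, 8.12, 7.99 and 7.89 in pups, and 6.53, 6.64 and 6.78 in adults. In spretus they were 7.69, 7.97 and 7.94 in newborns, 7.92, 8.25 and 8.19 in pups, and 6.65, 6.63 and 6.81 in adults. Every adult array lay below every younger array of both species, so the adult and younger groups did not overlap. The fall after day 14 was -1.35 in musculus and -1.42 in spretus, which left 39.3% and 37.3% of the day 14 level. Its change before day 14 was -0.07 in musculus and 0.25 in spretus, and the latter lies near the limit of 0.3.

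ENSMUSG00000020661 came next, ranked by the smaller of its falls in the 2 species. Its log2 levels in musculus were 9.25, 9.13 and 9.11 in newborns, 9.50, 9.40 and 9.23 in pups, and 7.89, 8.14 and 8.07 in adults. In spretus they were 9.30, 9.32 and 9.14 in newborns, 9.38, 9.44 and 9.50 in pups, and 8.29, 8.17 and 8.09 in adults. The day 14 means were the highest of the 3 ages in both species, and the adult values were separate from all others. The later change was -1.34 in musculus and -1.26 in spretus, which left 39.5% and 41.7% of the pup level. The third gene with a fall of at least 2-fold in both species had pup means of 9.34 ± 0.12 in musculus and 9.06 ± 0.04 in spretus, and adult means of 8.23 ± 0.10 and 7.70 ± 0.06 (log2, SD, n = 3). After these 3 there was a gap. The fourth gene, also the one with most masked probes among the 90, had later changes of -0.75 in musculus and -0.88 in spretus from a very high level, with pup means of 11.47 ± 0.12 and 10.94 ± 0.08.

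**Figure D2:**
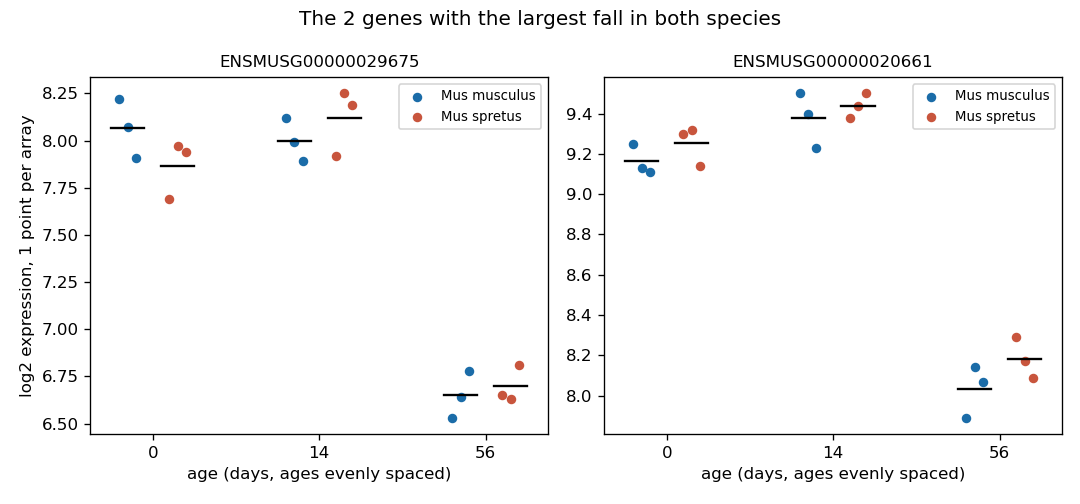
Log2 expression of ENSMUSG00000029675 and ENSMUSG00000020661 at day 0, 14 and 56, with 1 point per array, musculus in blue and spretus in red, and black lines for the means of 3 arrays. In both genes the 6 adult points lie below the 12 younger ones, at 6.53 to 6.81 and at 7.89 to 8.29.

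Array by array, pup and adult values were apart in most but not all of the genes, which the choice itself favours. In musculus every day 56 array lay below every day 14 array in 70 of the 90 genes, against 13.8% of all genes. In spretus this held for 81 of 90, against 14.5% of all genes, and in both species for 64, against 6.49% of all genes. By limma, with adjustment over all 12346 genes, 66 of the 90 passed as falling in musculus, where 6.82% of all genes did, and 56 in spretus, where 4.16% did. Both tests were passed by 51 genes and neither by 19, beside 2.41% and 91.4% of all genes. The choice used these same changes, so nothing is read from these counts. The median spread within groups was 0.13 (SD, log2) in musculus and 0.11 in spretus among the 90 genes, and 0.14 and 0.13 among all genes.

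The early changes, all within the limit of the choice, were parted by their sign as a description, and none was tested. In 22 genes the day 14 mean was above the day 0 mean in both species, with median early changes of 0.16 in musculus and 0.14 in spretus. Their median changes from day 0 to day 56 were -0.21 and -0.25. In 31 genes the day 14 mean was below the day 0 mean in both species, with median early changes of -0.15 and -0.17. Their median changes from day 0 to day 56 were -0.57 in musculus and -0.63 in spretus. The split itself sets the order of these values. The early medians are near the spread of single arrays within groups (SD), and the error of a mean of 3 arrays is smaller. Some genes changed early within the limit. One gene changed by -0.244 in musculus and -0.260 in spretus before day 14, and another by 0.256 and 0.229. In both genes the newborn and pup arrays did not overlap in either species. In the remaining genes the day 14 mean was above the day 0 mean in 1 species alone, 26 of them in musculus and 11 in spretus. The later falls of the sets of 22 and 31 genes had medians of -0.38 and -0.43 in musculus and -0.37 and -0.41 in spretus. For the sets of 26 and 11 genes the medians were -0.50 and -0.37 in musculus and -0.42 and -0.54 in spretus.

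The limits of the choice cut through a continuous range. The genes just inside the limit on the fall had smaller falls of -0.3003 and -0.3033, and those just outside had -0.2976 and -0.2958. The genes just inside the limit on the early change had larger early changes of 0.2990 and 0.2989 in size, and those just outside had 0.3006 and 0.3032. Over both species, 445 genes fell by 0.3 or more after day 14, of which the 90 make up 20.2%. Of the rest, 157 had already fallen by 0.3 or more before day 14 in both species, 108 had first risen by as much in both, and 90 had another early course. In both species 6226 genes stayed within 0.3 before day 14, of which the 90 make up 1.45%.

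The 2 species give measurements of each other that the choice in 1 species did not use. Met by musculus arrays alone, the conditions held for 366 genes, and met by spretus arrays alone for 383 genes. The 90 genes are 24.6% of the first list and 23.5% of the second, while 2.97% of all genes met the conditions in musculus and 3.10% in spretus.

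The 366 genes chosen in musculus were lower at day 56 than at day 14 in spretus in 324 cases, or 88.5%, against 52.6% of all genes. Their median spretus change was -0.21 (log2), with quartiles of -0.38 and -0.10, and that of all genes was -0.01. In limma's test of the spretus change 93 of the 366 passed as falling, or 25.4%, beside the 4.16% of all genes given above. As rising 2 passed, or 0.546%, beside 3.98% of all genes. The count of 93 was 61 when replicate 2 of the spretus pups was left out and also 61 when replicate 3 was, and then 2.26% and 2.61% of all genes passed as falling. With the arrays of this comparison fitted alone the count was 70, or 19.1%, beside 2.57% of all genes. Among the 7340 genes that stayed within 0.3 before day 14 in musculus, whatever they did later, 2.73% passed as falling in spretus.

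The 383 genes chosen in spretus were lower at day 56 than at day 14 in musculus in 279 cases, or 72.9%, against 46.4% of all genes. Their median musculus change was -0.19, with quartiles of -0.36 and 0.02, where the median of all genes was 0.02. In the musculus test 96 passed as falling, or 25.1%, beside 6.82% of all genes. As rising 1 passed, or 0.261%, beside 5.08% of all genes. With the 6 arrays of this comparison fitted alone the count was 63, or 16.4%, beside 3.53% of all genes.

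**Figure D3:**
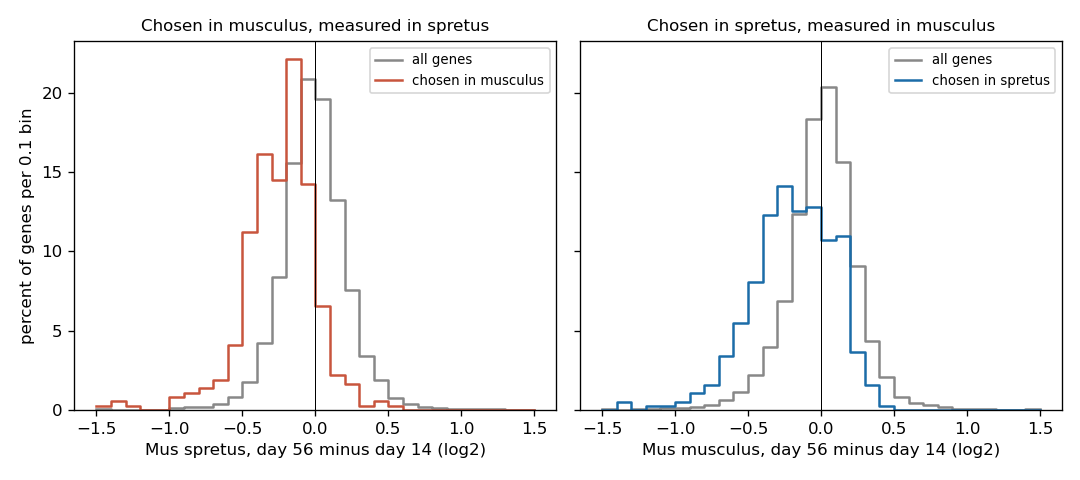
Percent of genes in each bin of 0.1 of the log2 change from day 14 to day 56, on the left in spretus for the 366 genes chosen in musculus and on the right in musculus for the 383 genes chosen in spretus, with all 12346 genes in grey and changes beyond 1.5 placed in the end bins. The chosen genes lie to the left of all genes, with medians of -0.21 in spretus and -0.19 in musculus.

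Genes that met the conditions in 1 species missed them in the other in several ways. Of the 366 chosen in musculus, 156 were also level before day 14 in spretus but did not fall there by 0.3, of which 134 were lower at day 56 and 22 were not. A further 34 fell by 0.3 or more in spretus after an early fall, 14 did so after an early rise, and 72 missed both conditions. Of the 383 chosen in spretus, 189 were level before day 14 in musculus but did not fall by 0.3, of which 115 were lower at day 56 and 74 were not. Another 11 fell in musculus after an early fall, 27 after an early rise, and 66 missed both conditions. The early condition taken alone was common, since 61.3% of all genes met it in spretus and 59.5% in musculus.

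**Figure D4:**
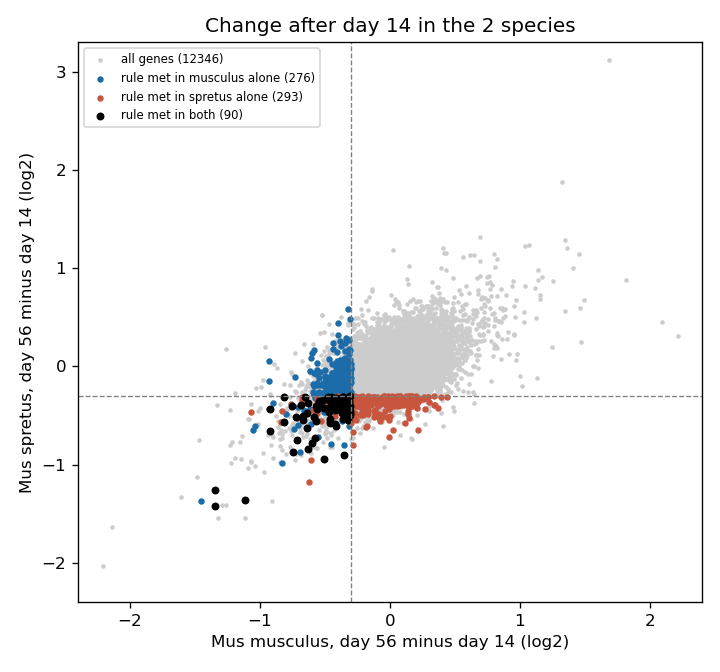
Log2 change from day 14 to day 56 in musculus (horizontal) and spretus (vertical) for all 12346 genes in grey, the 276 genes that met the conditions in musculus alone in blue, the 293 in spretus alone in red and the 90 in both in black, with dashed lines at the limit of -0.3. The 3 black points at the lower left are the genes that fell at least 2-fold in both species, and most of the others lie near the limits.

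The sizes of the falls in the 2 species were within 0.1 of each other on the log2 scale in 47 of the 90 genes, and the fall was larger in musculus in 52 genes and in spretus in 38. The spretus change minus the musculus change had a median of 0.02 and quartiles of -0.09 and 0.09. In 6 genes the falls were 0.3 or more apart, 4 of them with the larger fall in musculus. At one extreme was a gene with a change of -0.815 in musculus, where its pup mean was 8.55 ± 0.10 and its adult mean 7.74 ± 0.09 (log2, SD, n = 3). In spretus its change was -0.307, between means of 8.40 ± 0.14 and 8.09 ± 0.10. At the other extreme was a gene with a change of -0.35 in musculus, between means of 5.73 ± 0.51 and 5.38 ± 0.12. In spretus its change was -0.90, between means of 6.03 ± 0.49 and 5.13 ± 0.22. The pup arrays of this gene were spread widely, at 6.31, 5.55 and 5.34 in musculus and at 5.46, 6.36 and 6.25 in spretus, and its groups overlapped in musculus. The choice used these changes, so their difference was not tested.

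A constant difference in level between the species has no part in the choice and could be tested. Averaged over the 3 ages, 27 of the 90 genes differed between the species by limma, 11 higher and 16 lower in spretus. This share is near the 29.5% found among all genes, which were not matched to the 90 in level or masked probes. With the dimmest genes left out it was lower than among all genes, at 33.3% against 38.2%. Among genes with no masked probe it was higher, with 5 of 16 against 14.2%. Whether these genes stand apart from genes of like level and masking was not tested. In size the difference had a median of 0.10 (log2), against 0.11 over all genes, and 3 of the 27 genes differed by 0.5 or more, as did 13.6% of all genes that passed. Tested at single ages, 12 of the 90 differed among newborns, 8 among pups and 10 among adults, where 14.3%, 13.1% and 14.3% of all genes did. The choice limits the change before day 14 in both species, and so how far the difference can shift from day 0 to day 14. It also requires a later fall in both. Counts at single ages are thus not independent of the choice, and nothing is read from their shares. The count among pups was 5 when either replicate 2 or replicate 3 of the spretus pups was left out, and 4 with the 6 pup arrays fitted alone. The share of all genes fell in these fits too, to 8.52%, 10.6% and 8.04%. A difference was found at all 3 ages in 4 genes, at 2 ages in 3 and at 1 age in 12, beside 3.98%, 6.55% and 16.7% of all genes.

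**Figure D5:**
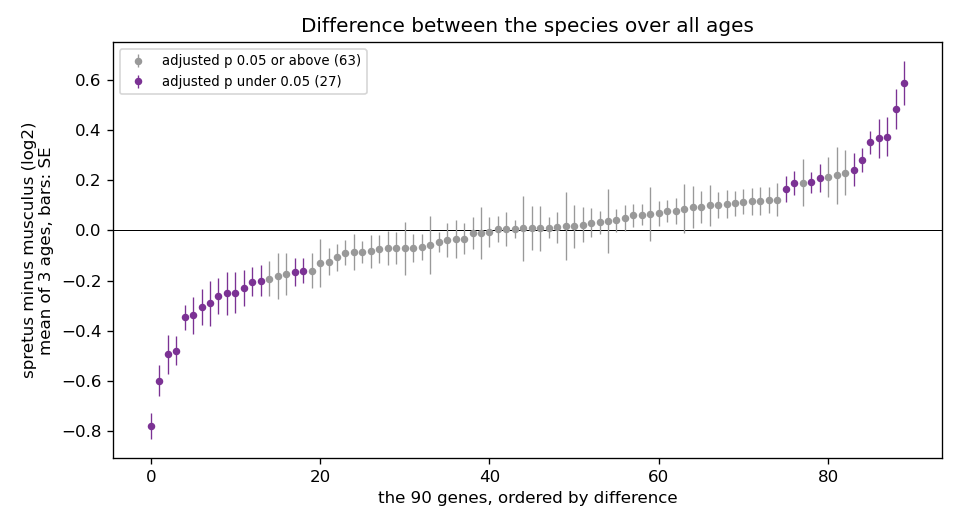
Spretus minus musculus log2 level, averaged over the 3 ages, for each of the 90 genes in order of the difference, with bars for the standard error from limma and the 27 genes with an adjusted p under 0.05 in purple. The differences run from -0.78 to 0.59, and most lie within 0.2 of 0.

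The largest difference between the species was in ENSMUSG00000025813. Its log2 levels in musculus were 9.38, 9.43 and 9.40 in newborns, 9.57, 9.44 and 9.68 in pups, and 9.16, 9.06 and 9.45 in adults. In spretus they were 8.69, 8.68 and 8.78, then 8.79, 8.82 and 8.70, then 8.40, 8.36 and 8.32. All 9 spretus arrays were below all 9 musculus arrays, while the later changes were -0.35 in musculus and -0.41 in spretus. The difference over all ages was -0.78 ± 0.05 (SE; limma, adjusted p = 1.16e-08). ENSMUSG00000022255 was also lower in spretus, by a difference of -0.60 ± 0.06 (SE; limma, adjusted p = 1.59e-06). Its levels ran from 8.84 to 9.02 in musculus and 8.16 to 8.35 in spretus at day 0, from 8.63 to 8.88 and 8.15 to 8.26 at day 14, and from 8.17 to 8.58 and 7.66 to 7.98 in adults, with no overlap between the species at any age.

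The largest difference in the other direction was in ENSMUSG00000059981, which was higher in spretus by 0.59 ± 0.09 (SE; limma, adjusted p = 6.56e-05). Its log2 levels in musculus were 5.44, 5.80 and 5.81 in newborns, 5.92, 5.56 and 6.19 in pups, and 5.42, 5.67 and 5.46 in adults. In spretus they were 6.30, 6.50 and 6.41, then 6.62, 6.14 and 6.50, then 6.16, 5.90 and 6.03. The species were apart at day 0 and day 56, and at day 14 the lowest spretus array lay below the highest musculus array. ENSMUSG00000022021 was higher in spretus by 0.48 ± 0.08 (SE; limma, adjusted p = 0.000166). The difference was 0.73 ± 0.14 in newborns (SE; limma, adjusted p = 0.0016), 0.36 ± 0.14 in pups (adjusted p = 0.0985) and 0.37 ± 0.14 in adults (adjusted p = 0.0872). Whether it differed between the ages was not tested. Its levels, with means of 4.50 to 5.30, lie close to 4.76, the upper bound of the dimmest 25% of all genes. Neither ENSMUSG00000059981 nor ENSMUSG00000022021 passed by limma as falling after day 14 in either species. With 1 array left out, ENSMUSG00000022021 was chosen in 10 of the 18 repeats.

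The 90 genes were brighter than most. Their level, averaged over all 18 arrays, had a median of 7.75 (log2), against 6.56 for all genes, and ran from 4.12 to 11.16. When all genes were parted by level into steps of 25%, 3 of the 90 were in the dimmest step, 17 and 31 in the middle steps and 39 in the brightest, or 43.3%. Whether the level had a part in the choice was not tested. The authors had masked at least 1 probe in 73.9% of all genes and in 82.2% of the 90. The median number masked was 2 in both, and 7 or more were masked in 11.1% of the 90 and in 12.2% of all genes. The calls between the species came from 5 of 16 genes with no masked probe, 19 of 64 with 1 to 6 and 3 of 10 with 7 or more, beside 14.2%, 31.2% and 53.3% of all genes with such numbers.

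The list changed with the arrays used. With 1 array left out and the same limits, between 76 and 100 genes met the conditions, of which 68 to 88 were among the 90. The lowest number was reached without replicate 1 of the musculus pups, where 68 of the 90 stayed, and without replicate 3 of the spretus pups 71 stayed. Of the 90 genes, 25 were chosen in all 18 of these repeats and 86 in at least 12, so most of them depended on at least 1 array. Genes further from the limits are kept more readily, and the 25 had larger falls, with medians of -0.57 in musculus and -0.55 in spretus. ENSMUSG00000020661 was among them, and ENSMUSG00000029675 was chosen in 16 of the 18.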

How the data were processed

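Log2 expression values were used as the authors deposited them, with 18 arrays of 12346 genes. That they are log2 was judged from their range (2.89 to 13.82); array medians of 6.52 to 6.56 show that they were already normalized. How background, probe summary and normalization were handled is not given in the sources used here, nor is any scan date or batch, and the number of arrays limits the precision. The other deposited table lists the array positions (x and y) of 46864 masked probes and served only to count them per gene. None of the 12346 IDs was matched to a symbol among 49997 reference genes, so 58 gene lists and marker lists had 0 members matched, and no sequence could be assigned. The rule for named genes was cut to 2 IDs per direction.

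Group means of 3 arrays gave the members. limma 3.58.1 in R 4.3.3 fitted 6 group means to all 18 arrays (lmFit, contrasts.fit, eBayes; 12 residual degrees of freedom, 17.1 after moderation). Tests were two-sided, with Benjamini-Hochberg adjustment over all genes and calls at an adjusted p under 0.05. The limma step alone was tested on simulated data, for the spretus change from day 14 to day 56. The choice of the genes was not simulated. The members and lists were chosen with earlier results of these data known. Alternatives were quantile normalization, median centring, filters on dim genes and masked probes, other limits, other fits, a replicate block and leaving out each array.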

Additional observations from a re-analysis of the deposited data

How the results depend on the processing

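With 1 array left out, the number of genes meeting the conditions lay between 76 and 100 (90 in all arrays). The counts of the 90 genes that differed between the species lay between 24 and 29 over all ages (27), 8 and 13 in newborns (12), 5 and 9 in pups (8) and 7 and 12 in adults (10). The genes chosen in musculus that passed as falling in spretus lay between 61 and 97 (93), and those chosen in spretus that passed in musculus between 70 and 96 (96). The shares of all genes moved in these fits too. Without replicate 2 of the musculus newborns, 8 of the 90 and 10.8% of all genes differed in newborns, against 14.3% with all arrays. Without replicate 3 of the musculus adults, 70 genes chosen in spretus and 4.95% of all genes passed in musculus, against 6.82%. The tighter limits, which can only shorten the list, left 32 genes at a fall of 0.4 or more and 47 at an early change under 0.2. Leaving out genes with a masked probe kept 16 of the 90, 72 of the 366 and 114 of the 383 genes, and so lowered every count. By limma 4 genes differed between the species over all ages, 1 in newborns, 0 in pups and 0 in adults. Of the genes chosen in 1 species, 9 and 12 passed as falling in the other. Of all 3221 genes without a masked probe 8.35%, 1.52%, 1.80% and 2.48% differed in these 4 tests and 1.06% and 1.58% passed as falling. With the arrays of the comparison fitted alone, 4 genes differed in pups and 63 genes chosen in spretus passed in musculus, where the shares of all genes fell as well, to 8.04% and 3.53%; the cause was not tested. Under quantile normalization, median centring, the filter on dim genes and the filter on 7 or more masked probes, which was chosen after seeing the data, no count moved by over 1.5 times. The 6 named genes kept their direction under each of these settings that tested them.

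The labels number the replicates alike in every group, but same-numbered arrays did not deviate together: of 45 pairs 4 had a correlation over 0.1, with a median of 0.00, and 8 of 18 arrays were closest on average to their own number. With the replicate block, 27 of the 90 genes differed between the species over all ages, 12 in newborns, 7 in pups and 12 in adults, beside 29.2%, 13.8%, 12.5% and 13.7% of all genes. Of the genes chosen in 1 species 89 and 94 passed as falling in the other, beside 3.85% and 6.32% of all genes. The 3 arrays a group limit what small changes could be called.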
